A study of Mus musculus with 8 samples.

Results

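MEF-only 5hmC peaks were regions enriched for 5-hydroxymethylcytosine (5hmC) in primary mouse embryonic fibroblasts (MEFs) with no overlapping peak in embryonic stem cells (ESCs), adult brain or adult liver. They were selected on the measured peak lists themselves, as nuclear MEF peaks with a MACS score of at least 80 that did not share 1 bp with any peak of the full ESC, brain and liver lists. By this rule 16695 of the 74068 nuclear MEF peaks with that score were MEF-only, which is 22.5% of them, out of 217025 nuclear MEF peaks at every score. The other 57373 overlapped a peak of at least 1 of the 3 other lists and are called the other MEF peaks. Since score and overlap made the selection, the number, the scores and the widths are given as a description, and "only" refers to these lists and their thresholds.

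The lists came from GLIB-Seq, in which 5hmC is glucosylated, oxidized and biotinylated so that fragments carrying it can be pulled down and sequenced. Each condition had 1 library, so there was no spread between replicates and no test between libraries, and intervals below are exact (Clopper-Pearson) 95% intervals that cover counting error only. The MEFs were cultured primary cells from C57BL/6 mice, labelled embryonic day 11, while the methods of the study name a later day. Brain and liver were tissues of C57BL/6 mice aged 8 weeks, and the ESCs were of the E14 line. The 2 remaining lists were from E14 ESCs transfected with a short hairpin, as a control aimed at GFP (shGFP) or at Suz12, a Polycomb subunit (shSuz12). They took no part in the selection. The labels name no engineered allele in any source. Read numbers are not part of the lists and depth is unknown. The lowest score was 80 in the ESC and liver lists but 30 in the MEF and brain lists, so that absence was judged against a more permissive list in brain.

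5hmC is made from 5-methylcytosine by the TET dioxygenases, almost always at CpG dinucleotides, and it is an intermediate on a route to unmethylated cytosine as well as a lasting mark. It is known for lying along gene bodies and at enhancers, the distal elements that direct cell type-specific transcription. Fibroblasts are mesenchymal cells that build the collagen matrix and pull on it through actin fibres and integrins.

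The central 300 bp of 5 MEF-only peaks are shown because they are the highest-scoring members in the 3 genes with most members, over a transcription start site (TSS) and outside genes, and because their CpGs and their AP-1 motifs are taken up further on. Sequences are the plus strand of mm9 (NCBIM37), capital CG marks a CpG, and a run of 7 capitals marks a match to the AP-1 motif TGANTCA.
Rbms3 intron: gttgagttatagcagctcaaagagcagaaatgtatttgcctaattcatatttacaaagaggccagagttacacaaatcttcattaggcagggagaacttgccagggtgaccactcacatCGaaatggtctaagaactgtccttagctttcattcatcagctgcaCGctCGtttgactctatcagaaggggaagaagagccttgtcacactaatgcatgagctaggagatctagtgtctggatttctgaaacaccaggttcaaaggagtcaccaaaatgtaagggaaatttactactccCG
Fgfr2 span, nearest TSS Chst15: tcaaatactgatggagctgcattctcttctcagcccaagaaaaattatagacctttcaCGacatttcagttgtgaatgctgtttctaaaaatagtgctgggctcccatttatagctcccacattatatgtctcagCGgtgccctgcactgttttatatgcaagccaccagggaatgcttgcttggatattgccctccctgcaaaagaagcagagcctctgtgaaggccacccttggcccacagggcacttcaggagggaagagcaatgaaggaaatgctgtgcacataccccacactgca
Prkg1 intron: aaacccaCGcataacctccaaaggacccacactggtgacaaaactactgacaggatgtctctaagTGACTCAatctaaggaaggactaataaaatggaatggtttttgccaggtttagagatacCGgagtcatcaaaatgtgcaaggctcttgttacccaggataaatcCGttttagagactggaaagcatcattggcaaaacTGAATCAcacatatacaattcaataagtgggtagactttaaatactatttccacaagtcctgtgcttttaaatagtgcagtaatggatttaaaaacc
Gm14221 promoter: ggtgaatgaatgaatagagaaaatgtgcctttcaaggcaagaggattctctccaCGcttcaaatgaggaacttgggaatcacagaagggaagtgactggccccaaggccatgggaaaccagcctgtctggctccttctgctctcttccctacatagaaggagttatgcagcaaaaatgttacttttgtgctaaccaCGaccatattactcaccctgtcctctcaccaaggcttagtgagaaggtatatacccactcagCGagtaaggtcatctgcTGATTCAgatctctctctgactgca
highest-scoring intergenic region: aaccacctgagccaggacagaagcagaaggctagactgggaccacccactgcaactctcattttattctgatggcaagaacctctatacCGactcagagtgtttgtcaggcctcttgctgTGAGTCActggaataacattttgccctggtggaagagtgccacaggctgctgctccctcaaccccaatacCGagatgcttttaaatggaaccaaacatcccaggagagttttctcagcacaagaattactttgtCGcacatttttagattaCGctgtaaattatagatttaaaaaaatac
These windows lay at chr9:117035555-117035854, chr7:139560855-139561154, chr19:31358832-31359131, chr2:160446010-160446309 and chr9:72044949-72045248, in that order. The Rbms3 window held 4 CpGs and no AP-1 match, and its peak had a score of 305.84. The window in the Fgfr2 span held 2 CpGs and no AP-1 match, with a peak score of 259.96. The Prkg1 window held 3 CpGs and 2 AP-1 matches, with a peak score of 357.49. The Gm14221 window held 3 CpGs and 1 AP-1 match, and the intergenic window held 4 CpGs and 1 AP-1 match. Their peaks had scores of 638.23 and 782.87, and the latter was the highest of all members.

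The median width of the MEF-only peaks was 1033 bp (95% interval of the median 1027 to 1039), with quartiles of 845 and 1300 bp and a range from 264 to 4526 bp. The other MEF peaks had a median of 1300 bp (1294 to 1306) and reached 22973 bp. The rule bears on this contrast, since a wider peak is more likely to touch another by 1 bp, so widths are given as a description. Together the members covered 18.5 Mb, against 83.7 Mb for the other MEF peaks. Regions wider than 2000 bp made up 3.23% of the members (540 peaks) and 15.2% of the other MEF peaks.

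The scores of the members were also lower. Their median score was 110 and their highest 782.87, against 136 and 3100 in the other MEF peaks, and 1796 members (10.8%) reached a score of 200 against 26.8% of the other MEF peaks. The MEF-only share fell along the score, from 31.5% of the MEF peaks with scores between 80 and 100 to 13.6% between 200 and 300 and 6.22% from 300 up. Widths rose with score in both sets, and within these ranges the rule's dependence on width remained. Between 80 and 100 the median widths were 926 bp in members and 1017 bp in the other MEF peaks, between 150 and 200 they were 1192 and 1434 bp, and from 300 up they were 1739 and 2312 bp. At the limit of the rule, the peaks just outside had a score of 79.98 and those just inside had 80 and 80.01.

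**Figure D1:**
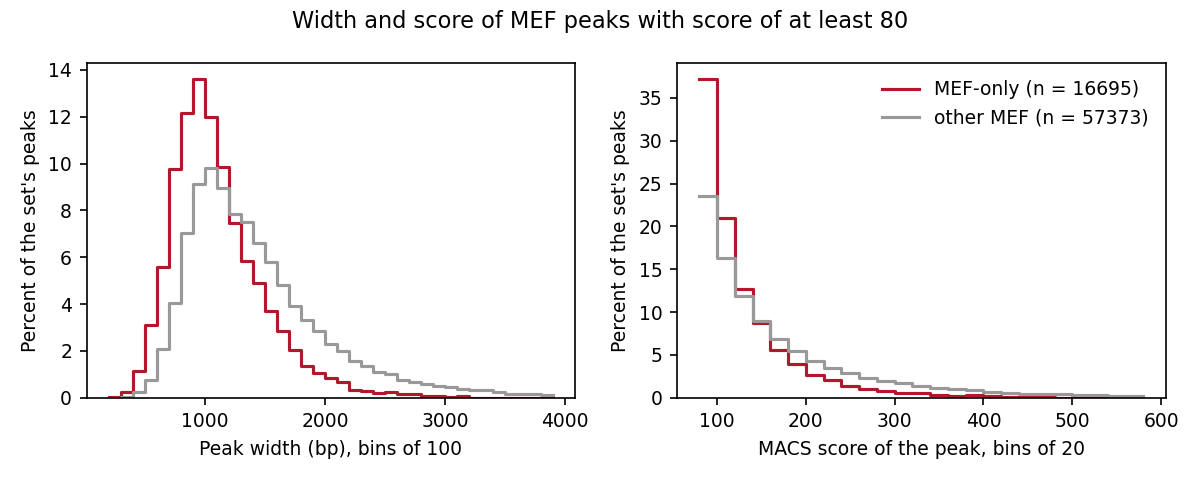
Histograms of peak width in bp (left, bins of 100 bp) and MACS score (right, bins of 20) as a percent of each set, for the 16695 MEF-only peaks (red) and the 57373 other MEF peaks with a score of at least 80 (grey). The medians of the MEF-only peaks are lower in both panels, with values of 1033 bp and 110 against 1300 bp and 136.

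Many members lay near a peak of another cell type without touching it. The distance to the closest peak of the ESC, brain and liver lists had a median of 2066 bp, was under 1 kb for 5530 members (33.1%) and at least 10 kb for 2894 (17.3%). The median distance was 3992 bp to a brain peak, 6711 bp to an ESC peak and 24259 bp to a liver peak. In the other direction, few shared peaks were shared by a sliver: 582 of the other MEF peaks (1.01%) had a best overlap under 100 bp. Of the 74068 MEF peaks, 14658 (19.8%) were found in all 4 cell types, 11257 (15.2%) in MEFs, ESCs and brain and 8913 (12.0%) in MEFs and brain. MEFs and liver alone had 4114 peaks in common (5.55%).

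Members were also compared with the 2 ESC lists that the rule did not use. A peak of the shGFP cells overlapped 1256 members (7.52%, 7.13 to 7.93), and a peak of the shSuz12 cells overlapped 1481 (8.87%, 8.44 to 9.31). For the other MEF peaks without an ESC peak the percentages were 12.7 and 14.7, and for those with an ESC peak they were 70.1 and 60.3. Neither hairpin list had a peak at 14301 members (85.7%). The shGFP list reached down to a score of 50.02 and the shSuz12 list to 30.34, below the ESC list, and with the shGFP list held to a score of 80 the overlap was 2.74%.

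Most MEF-only peaks lay outside protein-coding genes. By their midpoints, 9834 members (58.9%, 58.2 to 59.7) were intergenic, 6332 (37.9%, 37.2 to 38.7) intronic, 337 (2.02%, 1.81 to 2.24) exonic and 192 (1.15%, 0.994 to 1.32) within 1 kb of a protein-coding TSS, here called the promoter. The other MEF peaks were 36.8% intergenic, 55.2% intronic, 5.91% exonic and 2.09% promoter. By midpoint, exons held members at 0.795 times their share of the genome and the other MEF peaks at 2.33 times that share. The exonic percent of the members was 6.04 when an overlap of 1 bp counted in place of the midpoint. No such value is given for the other MEF peaks, so it cannot be set against their 5.91% by midpoint. The intergenic share of the members was close to the 61.8% of the genome that is intergenic.

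The same rule applied to the other cell types gave 45085 ESC-only, 2370 brain-only and 33911 liver-only peaks. They came from 171865 ESC, 33202 brain and 130408 liver peaks with a score of at least 80. The lists to be avoided differed in lowest score, so the rule was not equally strict for each cell type. The MEF-only peaks had the highest intergenic share of these sets, each from 1 library. It was 47.6% (47.2 to 48.1) in ESC-only, 25.6% (23.9 to 27.4) in brain-only and 31.1% (30.6 to 31.6) in liver-only peaks. The exonic share of 2.02% was likewise below those of ESC-only (10.3%), brain-only (5.53%) and liver-only (7.05%) peaks. On promoters, the MEF-only share lay above brain-only peaks (0.464%) and below ESC-only (3.70%) and liver-only peaks (2.51%). In median width the MEF-only peaks lay between brain-only peaks, at 1552 bp, and ESC-only and liver-only peaks, at 750 and 863 bp.

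**Figure D2:**
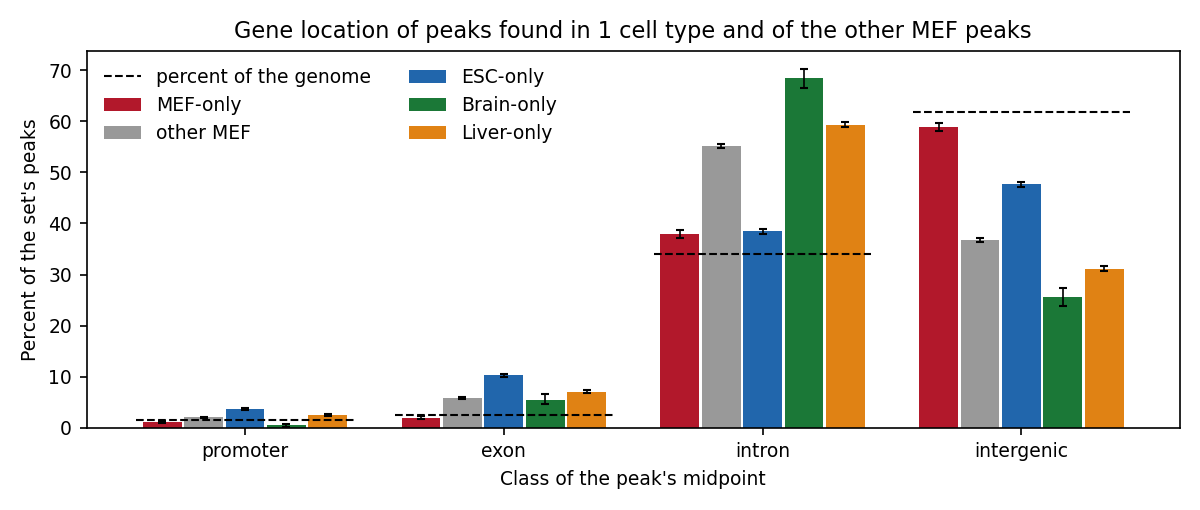
Percent of peaks whose midpoint is in a promoter, exon, intron or intergenic region, for MEF-only peaks, the other MEF peaks and the peaks found only in ESCs, brain or liver. Bars start at 0, error bars are exact 95% intervals for counting error, and dashed lines give each class's percent of the genome; the MEF-only bar is the highest in the intergenic class, at 58.9%.

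The difference in location was seen on every autosome. On all 19, the intergenic share was higher in the members (48.6% to 70.1%) than in the other MEF peaks of the same chromosome, and the exonic share was lower (0.532% to 3.44%, against 3.57% to 8.91%). All autosomes came from 1 MEF library and are not replicates. The rule bears on location too, since it leaves out MEF peaks wherever the other lists have peaks. Members lay farther from TSSs as well, with a median distance of 70.6 kb from the midpoint to the nearest protein-coding TSS against 41.4 kb for the other MEF peaks. Within 10 kb of a TSS lay 11.1% of the members and 18.3% of the other MEF peaks, and beyond 100 kb lay 39.9% and 23.9%. Among intergenic peaks alone the medians were 83.3 and 49.9 kb. Annotated non-coding genes accounted for few of the intergenic members, with 240 (2.44%) inside a lincRNA gene and 230 (2.34%) inside another processed transcript.

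The MEF-only share varied between chromosomes. Its median over the autosomes was 22.5%, from 15% on chromosome 8 to 28.7% on chromosome 3, and the density ran from 5.07 to 8.31 members per Mb. The X chromosome stood apart, with 55 of its 72 MEF peaks with a score of at least 80 being members (76.4%, 64.9 to 85.6). Its density was low, at 0.330 members and 0.432 such MEF peaks per Mb. All lists held few X peaks. There were 757 at every score in MEFs, 328 in ESCs, 104 in liver and 22 in brain. A MEF peak on this chromosome therefore had few peaks to overlap, and what this did to the share was not tested. Chromosome Y had 5 such MEF peaks and none was MEF-only.

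**Figure D3:**
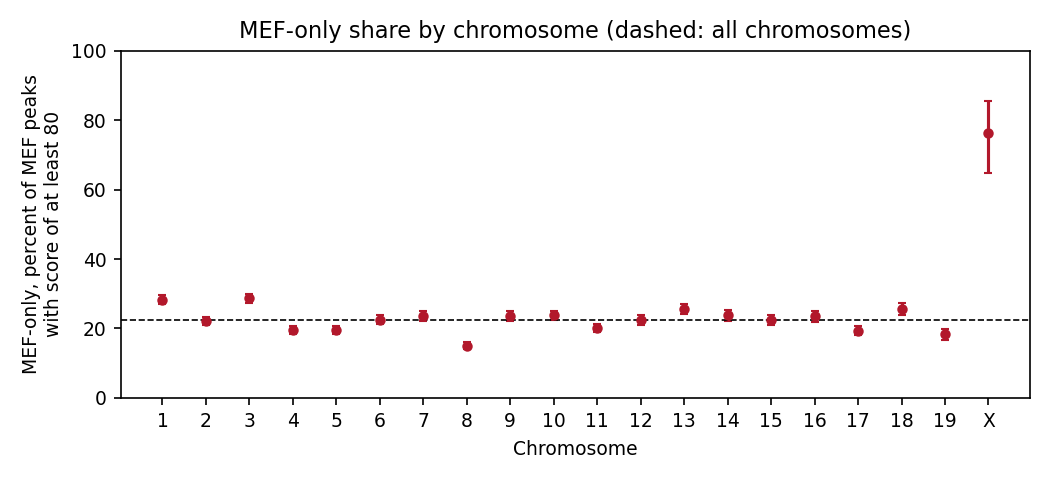
MEF-only peaks as a percent of the MEF peaks with a score of at least 80 on each autosome and the X chromosome, with exact 95% intervals for counting error and a dashed line at the 22.5% of all chromosomes. The autosomes lie between 15% and 28.7% and the X chromosome at 76.4%.

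Members were spread over many genes. Of 22367 protein-coding genes, 2841 held the midpoint of at least 1 member in their span, which is 12.7% of them, while 8322 (37.2%) held a MEF peak with a score of at least 80. Of the genes with a member, 1645 held exactly 1, 335 held at least 5 and 98 held at least 10. They were long genes, with a median span of 96.1 kb against 28.0 kb for genes that held such MEF peaks but no member and 15.4 kb for all protein-coding genes. A longer span has more room for at least 1 member at any member share, so this contrast is a description. Genes longer than 200 kb held 50.1% of the 6760 members inside gene spans and 34.6% of the other MEF peaks inside spans, and such genes make up 40.3% of the protein-coding span. Along genes longer than 20 kb the members were spread nearly evenly, with 10.5% in the first 10% of the span, a highest value of 11.1% in the fifth such part and 8.28% in the last.

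The 20 genes with most members held 487 of them, 2.92% of all. Rbms3, which encodes an RNA-binding protein, led with 48 members among 94 MEF peaks with a score of at least 80 over 1057 kb of chromosome 9. At every score its span held 248 MEF, 75 brain, 31 ESC and 5 liver peaks. Prkg1, the cGMP-dependent protein kinase that relaxes smooth muscle, held 29 members among 40 such MEF peaks over 1196 kb, with 62 brain, 9 liver and 4 ESC peaks. Over all protein-coding spans 15.9% of the MEF peaks with that score were members, so the 51.1% in Rbms3 and the 72.5% in Prkg1 were above that level.

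Further genes of this group encode matrix proteins and secreted or surface ligands. Ltbp1, which holds latent TGF-beta in the matrix, had 25 members of 48 MEF peaks. The collagen genes Col24a1 and Col25a1 had 22 of 31 and 19 of 39, and the glypican gene Gpc6 had 24 of 78. Efna5, a ligand of Eph receptors, and Slit3, a ligand of Robo receptors, each had 23 members, among 62 and 82 MEF peaks. Col24a1 had no liver peak and 7 ESC peaks in its 260 kb. Transcriptional regulators were Mecom, with 26 of 56, and Aff3, with 26 of 99. Genes best known from neurons were also in the group, such as Erc2 of the presynaptic active zone (21 of 44), the teneurin gene Odz2 (20 of 40), Kalrn (20 of 53), Auts2 (20 of 100) and the dynamin gene Dnm3 (21 of 60). The other genes of the group were Thsd4 with 20 of 62, and the predicted genes 1700011I03Rik with 23 of 35 and 1700112E06Rik with 21 of 50.

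The annotated spans of 2 genes in this group are far longer than the rest and hold other genes. Fgfr2, a receptor for fibroblast growth factors, had 35 members of 191 MEF peaks over 3009 kb that contain 31 other genes, and its highest-scoring member was nearest to the TSS of Chst15. Gm20388 had 21 members of 518 MEF peaks over 4435 kb with 72 other genes inside, a share of 4.05%. Counts for these spans therefore include the peaks of the genes within them.

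**Figure D4:**
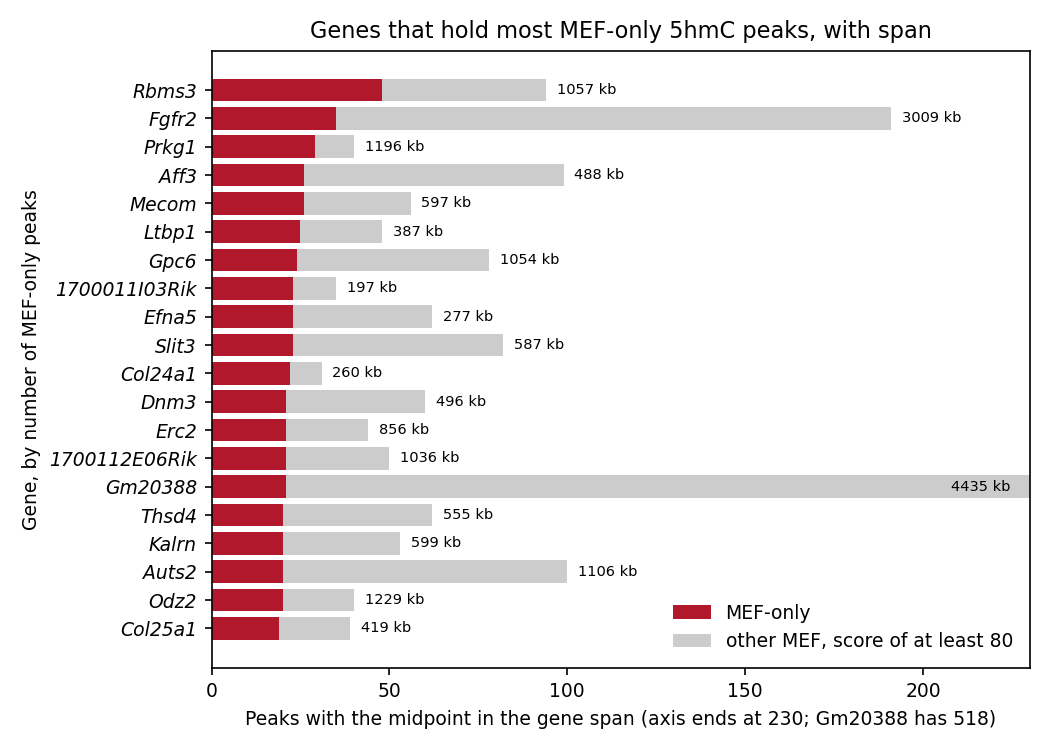
The 20 protein-coding genes with most MEF-only peaks, with the number of MEF-only peaks (red) and of other MEF peaks with a score of at least 80 (grey) by midpoint and the span in kb beside each bar; the axis is cut for Gm20388. Rbms3 has 48 MEF-only peaks and Prkg1 has the highest MEF-only share of the 20, 29 of 40.

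Ranked by density among genes with at least 5 members, the 10 leading genes were of mixed kinds. Prrx1 and Twist2 were those described here as mesenchymal factors, and kinds were not counted. Basp1, a membrane-associated protein, had 13.9 members per 100 kb (7 members). Prrx1, a homeobox factor of limb mesenchyme, had 13.1 per 100 kb, with 9 of its 13 MEF peaks MEF-only and 2 ESC, 11 brain and 0 liver peaks in its span. Twist2, a basic helix-loop-helix factor of mesenchyme, had 10.7 per 100 kb (5 of 11). Col8a1 had 12 of 15, which is 9.20 per 100 kb, and the lysophosphatidic acid receptor gene Lpar1 had 11 of 18, which is 9.27. 1700011I03Rik (11.7), Lass3 (8.73), Col24a1 (8.48), Bcl11a (8.33) and Efna5 (8.30) completed the 10 densest. The mean over all protein-coding spans was 6.80 members per Mb, and it was 5.98 per Mb outside them.

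Members also lay in runs. Joined where gaps were at most 5 kb, 4088 members (24.5%) fell into 1835 runs of at least 2, of which 73 had at least 4. No such count is given for the other MEF peaks, so these values do not say whether runs are particular to members. The longest had 7 members each, over 21.2 kb in 1700011I03Rik, over 19.8 kb in Prrx1 and over 18.3 kb of intergenic DNA whose nearest TSS, at 52.9 kb, was that of Lbh. Runs of 6 lay 21.8 kb from Npvf and 103 kb from Tsc22d2. The other MEF peaks with a score of at least 80 inside these 5 runs numbered 0 to 2 per run.

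Few members lay over the start of a gene. In all, 92 (0.551%, 0.444 to 0.675) covered a protein-coding TSS, against 1.09% of the other MEF peaks. The highest-scoring of them lay over Gm14221, a predicted gene, with a width of 3132 bp. Next was Il6, a cytokine that fibroblasts secrete, with a score of 409.01. Its nearest ESC, brain and liver peaks were 27683, 98869 and 96444 bp away, but 571 bp of the peak were covered in shSuz12 ESCs. Ankrd1 and Lats2 followed at 365.61 and 364.75. Ankrd1 is a classic target of the YAP and TEAD proteins, and Lats2 is the kinase that restrains YAP. Both peaks overlapped a peak of the shGFP cells. The rest of the 10 were Gm9875, 6030452D12Rik, the hair keratin-associated gene Krtap1-5, Padi1, Ly9 and Snd1, with scores of 272.28 to 357.47.

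The 10 members with the highest scores lay from 0.453 to 172 kb from a TSS. Below the intergenic peak on chromosome 9 came peaks in introns of 1700011I03Rik (score 765.37) and Fbxl13 (671.31), an intergenic peak 132 kb from 5830454E08Rik (660.51) and one in an intron of Dbh, the enzyme that makes noradrenaline (639.7). An intergenic peak of 4036 bp at 639.23 lay 156 kb from Gorab on chromosome 1 and had its nearest ESC peak 12996 bp and its nearest brain peak 31104 bp away. The remainder were the Gm14221 peak and intergenic peaks whose nearest TSSs were Pmp22 at 13.5 kb, Gm7292 at 172 kb and Myoz2 at 18.8 kb. Of the 10, 2 overlapped a peak of a hairpin list.

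Gene lists chosen by function showed where members lay relative to known biology. Of 28 fibroblast markers, 22 held a MEF peak with a score of at least 80 and 14 held a member, against the 12.7% of all protein-coding genes, at 26.2 members per Mb of span. Members were 43 of the 154 such MEF peaks in these genes (27.9%, 21.0 to 35.7), against 15.9% in all protein-coding spans. Ddr2, a collagen receptor, and Fbn1, which encodes fibrillin, had 6 members each. Cdh11, the fibroblast cadherin, had 5 of 10. Col1a2, a chain of type I collagen, had 4 of 6 over 36.7 kb, with 1 ESC, 3 brain and 0 liver peaks at any score. Col1a1, Fn1, Vim and Pdgfra held MEF peaks but no member, and Col3a1, Postn, Lum and Thy1 held no MEF peak with that score. Within 100 kb of the TSSs of this list, 83 of 187 intergenic MEF peaks were members (44.4%, 37.1 to 51.8). The same share was 31.4% around the mesenchymal transcription factors, 32.2% around actin and contractile genes, 25.7% around integrin and growth factor signalling genes, 26.2% around neuronal, 25.9% around hepatocyte and 16.2% around pluripotency genes. Of all intergenic MEF peaks with that score 31.8% were members, but that value covers peaks at any distance from a TSS. Beyond 100 kb from a TSS lay 4424 of the 9834 intergenic members and 6252 of the 21106 other intergenic MEF peaks. The share within 100 kb of any TSS is therefore below 31.8% and is not given here. List shares under 31.8% cannot be placed above or below it.

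The list of 40 mesenchymal transcription factors had the densest members, with 123 in 17 genes (42.5%), or 39.6 per Mb. Their member share was 33.9% (29.0 to 39.0), against the 15.9% of all MEF peaks with that score in protein-coding spans. Gli3, a transducer of Hedgehog signals, had 18 of 26 MEF peaks and no liver peak. Runx2, the osteoblast regulator, had 16 of 35, Glis3 had 16 of 59 and Ebf1 had 15 of 44. Actin and contractile genes had as many MEF peaks per Mb as this list (118 against 117) but a member share of 11.2% (8.38 to 14.7), below that level, with 47 members in 15 of 34 genes (44.1%), 16 of them in Palld and 7 in Cald1. Of 40 integrin and growth factor signalling genes, 17 (42.5%) held 100 members, a share of 15.7% (12.9 to 18.7), near that level, led by Fgfr2 and Ltbp1 and followed by the TGF-beta receptor gene Tgfbr3 with 8.

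Genes of other cell types held members as well. Of 27 neuronal genes found in the annotation, 17 (63.0%) held 70 members, but over 18.4 Mb, which gives 3.80 members per Mb. Their few MEF peaks with a score of at least 80 were MEF-only in 49.0% of cases (40.5 to 57.4), as in the synaptotagmin gene Syt1 with 12 of 17 and the glutamate receptor gene Gria1 with 9 of 10. Of 28 hepatocyte genes, Cyp7a1 and Hnf4a (7.14%) held 1 member each, 2 of the 10 MEF peaks of the list. Of 27 pluripotency genes, Jarid2, Sall4 and Mybl2 (11.1%) held 4 members of 29 MEF peaks, a share of 13.8% (3.89 to 31.7). These stand against 12.7% of all genes and 15.9% of the MEF peaks in spans, and the few peaks of both lists give wide intervals. Peak lists hold no RNA, so these counts say where 5hmC peaks lay and do not identify cells. Genes in the lists differ in length, and no list was tested. The intervals of the member shares count peaks singly and do not cover the spread between genes of a list. Single genes held many of a list's peaks, such as Fgfr2 with 191 of the 638 MEF peaks of the signalling list.

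The DNA of the members held less GC and fewer CpGs than that of the other MEF peaks, and more of both than windows along the genome. In the central 300 bp the median GC content was 44.7% (quartiles 41.0% and 48.0%), against 48.3% in the other MEF peaks, 50.7% in ESC-only, 46.7% in brain-only and 45.3% in liver-only peaks. Windows of 300 bp taken every 30 kb along the genome, 85284 in all, had a median of 41.7%. Members had a mean of 1.52 CpGs per 100 bp, the other MEF peaks 1.95 and the genome windows 0.831. The mean was 2.18 in ESC-only, 1.45 in brain-only and 1.37 in liver-only peaks. The median ratio of observed to expected CpGs was 0.295 in members, 0.322 in the other MEF peaks and 0.150 in the genome windows, and 0.916% of the members had no CpG in the window against 18.9% of the genome windows.

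Of 8 short motifs searched on both strands of the central 300 bp, the AP-1 motif differed most between members and the other MEF peaks. AP-1, the dimers of Fos and Jun proteins, is known to bind many enhancers of fibroblasts. A match to TGANTCA was found in 26.0% of the members (25.4 to 26.7) and in 16.6% of the other MEF peaks (16.3 to 16.9). It was found in 7.55% of ESC-only, 7.89% of brain-only and 8.49% of liver-only peaks, close to the 8.80% of genome windows. Over whole peaks a match was found in 52.6% of the members. No such value is given for the other MEF peaks, which were wider, and widths were not matched. A match is a description of letters, and binding was not measured.

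The share was higher in members than in the other MEF peaks within ranges of base composition and within location classes. In the 4 ranges of GC content between 35% and 55%, the AP-1 share was 25.3% to 27.1% in members and 16.4% to 17.3% in the other MEF peaks. It was 26.3% in intergenic, 25.8% in intronic, 24.9% in exonic and 21.9% in promoter members, and 13.4% to 17.6% in these classes of the other MEF peaks. On each of the 19 autosomes the members had the higher share (23.7% to 31.2%, against 14.7% to 17.8%). By score, members had 24.0% between 80 and 100 and 29.8% between 200 and 300, and the other MEF peaks 15.1% and 18.3%. From 300 up the shares were 26.7% and 18.1%. Among the other MEF peaks the share was highest where only liver had a peak besides MEFs (22.4%) and lowest where all 4 cell types had one (14.0%). Members free of hairpin ESC peaks had 26.7% and those with one 22.2%.

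AP-1 matches were concentrated at the centres of the members. The 100 bp on each side of the midpoint held 11.0 and 10.8 matches per 100 members, against 3.52 and 3.28 in the outermost 100 bp of a window reaching 1 kb to each side. The other MEF peaks had 6.58 and 6.18 at the centre and 3.11 and 2.94 at the edges. ESC-only, brain-only and liver-only peaks showed no such rise, with 2.69, 2.78 and 3.08 matches per 100 peaks just before the midpoint.

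**Figure D5:**
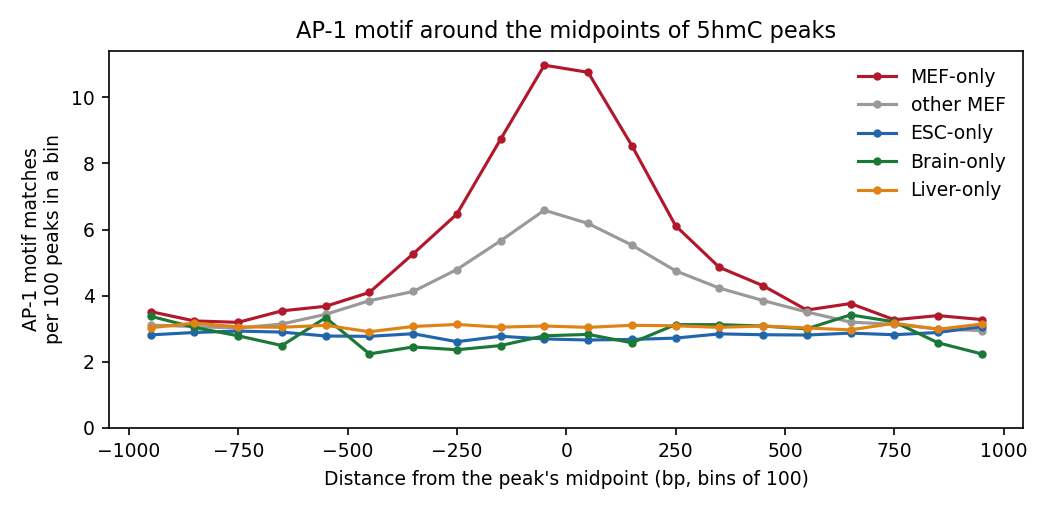
AP-1 motif matches (TGANTCA) per 100 peaks in bins of 100 bp by distance from the peak's midpoint in bp, for MEF-only peaks, the other MEF peaks and the peaks found only in ESCs, brain or liver. The MEF-only line rises from 3.52 at the left edge to 11.0 at the centre, the other MEF peaks reach 6.58, and the remaining lines stay between 2 and 4.

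The other motifs differed less. The TEAD motif GGAATG was in 24.2% of the members (23.5 to 24.8), 19.6% of the other MEF peaks and 15.8% of genome windows. The NF-I motif TTGGCA was in 20.4%, 18.4% and 14.5%. The RUNX motif TGTGGT was in 22.4% of the members and 22.6% of the other MEF peaks, and the E-box CAGATG was in 24.8% and 24.7%. The E-box CAGCTG went the other way, with 15.2% of the members and 19% of the other MEF peaks. CAAAGTCCA of the hepatocyte factor HNF4A was in 0.288% and 0.387%, and ATTTGCAT of POU factors was in 1.84% and 1.42%, against 0.356% and 2.64% of genome windows.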

How the data were processed

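Peak lists of 6 GLIB-Seq libraries were used, and the 2 RNA-Seq samples were not analysed here. As the methods and the submitters' processing notes state, the authors used CASAVA (1.8) for reads, mapped unique hits to mm9 with Bowtie (0.12.7), collapsed redundant reads and called peaks per library with MACS (1.4.1). Each peak has a deposited score, the MACS value of the authors, read as 10 times minus log10 of the p-value, on which 80 is 1e-08. Thresholds and controls of the peak calls are not given in the sources used here. Depth is unknown, and PCR copies cannot be told from molecules.

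Members, the 7 gene lists and the motifs were chosen with earlier results of these data known. Peaks were placed by midpoint on GENCODE release M1 of NCBIM37, in the order promoter (TSS with 1 kb on each side), exon and intron of protein-coding genes. Gene symbols are those of that release; 1 neuronal and 1 pluripotency symbol had no match. Named genes are the 20 with most members, the 10 densest with at least 5 members, the 10 highest members, the 10 highest over a TSS, the 4 leading genes of each list and the 5 longest runs; others named in the text, among them fibroblast markers without members, were picked after their values were seen. The AP-1 profile and subdivisions were added after the motif counts were seen. Repeats could not be measured, since the reference has no lower case letters. The selection code was checked on 20000 simulated peaks, of which 30.0% were placed well inside gaps of the ESC, brain and liver lists. The rest were placed on ESC peaks, and 30.0% were found to be MEF-only. Peaks close to a peak of another list were not simulated, so the check covers clear cases only. Python 3.11.15, pandas 2.3.3 and scipy 1.17.1 were used.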

Additional observations from a re-analysis of the deposited data

How the results depend on the processing

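Of 82 recomputed values, 23 stayed within the counting interval (for the number of members, within 1.5 times) and 59 moved. The cause was not tested, beyond what each setting does by construction. With the MEF list held to a score of at least 120 there were 6986 members, with a median width of 1197 bp, 59.8% intergenic, in 6.84% of protein-coding genes, with shGFP overlap at 8.59% and AP-1 matches in 28.2%. With the MEF list at every score there were 80993 members of 711 bp, 1.48% promoter, 2.36% exonic, 38.7% intronic and 57.5% intergenic, in 32.6% of genes, with shGFP overlap at 5.55%, GC at 44.3% and AP-1 at 20.5%. With the brain list held to 80 the median width was 1078 bp, with 40.8% intronic, 56.1% intergenic, 15% of genes, shGFP overlap at 8.31%, GC at 45% and AP-1 at 24.0%, and members numbered 23478. Counting a peak within 1 kb as shared gave 1.66% exonic, 33.7% intronic, 63.6% intergenic, 8.20% of genes, shGFP overlap at 5.81%, GC at 44.0% and AP-1 at 27.0%. Counting only an overlap of at least 50% of the MEF peak as shared gave 1158 bp, 2.27% exonic, 41.7% intronic, 54.9% intergenic, 17.0% of genes, shGFP overlap at 16.9%, GC at 45% and AP-1 at 23.3%. Assigning location by 1 bp gave 2.03% promoter, 6.04% exonic and 33.6% intronic, promoters of 2 kb gave 2.63% promoter and 37.2% intronic, and all annotated genes gave 1.95% promoter, 40.1% intronic, 55.8% intergenic and 8.64% of genes. The shGFP overlap was 4.13% when it had to cover 50% of the peak and 2.74% with that list held to 80. GC over the whole peak was 43.8%. Leaving out members with a hairpin ESC peak gave 1019 bp, 11.3% of genes and GC at 44.3%. That setting, the AP-1 settings and all GC settings but the whole peak were chosen after seeing the data. In these 6 settings of the selection, members stayed more intergenic (54.9% to 63.6%, against 35.1% to 37.9% of the remaining MEF peaks) and richer in AP-1 matches (20.5% to 28.2% against 14.6% to 17.3%). Median widths were 711 to 1197 bp against 897 to 1535 bp, a contrast on which the overlap rule itself bears and which was 1158 against 1255 bp under the 50% rule. Members were 16.8%, 37.3%, 31.7%, 15.1%, 32.5% and 19.3% of the MEF peaks in these settings, in the order above. No paired analysis was possible because there was 1 library per condition. Without read counts, a library's depth and the reach of its list cannot be told apart, and MEF-only holds for these lists and thresholds.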

Other observations

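The genes that were most often the nearest TSS of an intergenic member are given as counts, not set against the other intergenic peaks or the space between genes, and were named after their values were seen. Efna5, among the genes with most members in its span, was the nearest TSS of 36 of the 9834 intergenic members, the highest count of any gene, at a median distance of 162 kb. The predicted gene 3110018I06Rik was next with 32, at 379 kb. Lrig3, a membrane protein with leucine-rich repeats, was nearest to 28, Gm11678 to 26, and Prickle1 of planar polarity signalling, Slc4a3 and Zfp608 to 25 each. Thbs1, the matrix protein thrombospondin, and Lmo4, a transcriptional cofactor, were nearest to 23 each. The transcription factors Maf and Zeb2 were nearest to 22 each and Klf6 to 20, with a highest score of 564.05 near Klf6. Nearness along the chromosome was the measure, and no link to these genes was measured.

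In 15 genes with at least 4 MEF peaks with a score of at least 80, each of those peaks was a member, and the genes named from them were likewise picked after the fact. They were selected by this share, while over all protein-coding spans 15.9% of such peaks were members. The number of all genes with at least 4 such peaks is not given here. Sema3a, a secreted guidance ligand, led with 16 of 16, and its span held 3 ESC, 7 brain and 0 liver peaks. Spag17 had 11 of 11 and the adhesion receptor gene Gpr126 had 8 of 8. Aldh1a2, the enzyme that makes retinoic acid, had 5 of 5. Fap, the fibroblast activation protein, and Tnn, the matrix protein tenascin N, had 4 of 4 each. The 92 members over a TSS covered matrix genes such as Fap, Tnc, Tnn and Col6a3 as well as immune cell genes such as Ly9, Slamf8, Slamf9 and Selp and epithelial genes such as Muc5b and Clca1, and these kinds were not counted. At the other end, the 1113 olfactory receptor genes held a MEF peak with that score in 3 genes and a member in 1. Of all protein-coding genes, 37.2% held such a peak and 12.7% a member. Gene length was not matched in this comparison, and genes with a member were long, with a median of 96.1 kb against 15.4 kb for all.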
